A study of Mus musculus with 19 samples.

Results

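The RNA of hippocampal neurons treated with tetrodotoxin (TTX) was compared with that of untreated neurons, over 6 of the 19 samples of the series. TTX is a toxin that plugs the pore of voltage-gated sodium channels and so blocks action potentials. The neurons came from hippocampi of ICR mice at embryonic day 17 and were kept in culture for 10 days. The groups are 3 libraries with TTX (its dose and duration are not given in the sources used here) and 3 libraries with no treatment. A further 3 RNA libraries were treated for 3 h with bicuculline, which blocks GABA-A receptors, and 4-aminopyridine, which blocks potassium channels (Bic/4AP), and are used here only for values set beside the others. No genotype, transgene or animal number is given. Nothing in the labels ties the 3 libraries of a group to separate cultures or animals, and the p-values then cover the spread of these libraries only, possibly a technical one. Values are RPKM, that is reads per kilobase of gene, scaled to the number of reads of the library. Of 24062 gene rows, 14391 reached 1 RPKM in at least 3 of the 6 libraries and were tested. The row closest above that threshold was Gm15708, at 0.745, 0.327 and 0.0573 RPKM with TTX and 1.18, 1.00 and 1.35 RPKM untreated, and the closest below was Timeless, at 0.858, 0.915 and 0.504 RPKM with TTX and 1.22, 0.999 and 1.04 RPKM untreated. Of the genes tested, 402 are choroid plexus genes or rows of microRNAs and other small RNAs, which set the untreated libraries apart, and 13989 are the genes described here.

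When action potentials stop, neurons are known to adjust their receptors, ion channels and release machinery over hours to days, a set of responses called homeostatic plasticity. Less calcium enters through voltage-gated channels and NMDA receptors, and genes driven by calcium through the factors CREB, SRF and MEF2 lose part of their drive. Neurons also hold the integrated stress response, in which phosphorylation of the initiation factor eIF2alpha slows protein synthesis and lets the factor ATF4 switch on genes of amino acid supply and cell stress.

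The labelled cell type was checked against marker genes. The 12 general neuron markers were present in each of the 6 libraries, with summed levels of 756 to 835 RPKM with TTX and 782 to 931 RPKM untreated. By the test given below, 2 of the 12 were higher with TTX and 5 were lower (median log2 change -0.21). The steps of the RPKM values gave estimated library sizes of 9.68 to 12.6 M (mega) reads with TTX and 5.63 to 9.97 M reads untreated. All 38 choroid plexus markers that were tested were lower with TTX, at 136 to 166 RPKM in sum against 934 to 1372 RPKM untreated, and Ttr, the defining marker, was at 0.648, 0.276 and 0.254 RPKM with TTX and 197, 131 and 198 RPKM untreated. The 364 small RNA rows summed to 1214 to 1335 RPKM with TTX and 3944 to 5441 RPKM untreated. Untreated library 2, the deepest of its group, stood nearest to the TTX libraries, with correlations of log2 values of 0.887 to 0.897 against 0.817 to 0.860 for the other untreated libraries. The part of these differences in the results below was not tested, and with 1 treatment per set of libraries it cannot be told apart from TTX. In such bulk samples, fewer cells of a type and less RNA per cell cannot be told apart either.

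With TTX, 5970 of the 14391 genes were higher (41.5%) and 3317 were lower (23%) at an adjusted p of 0.05 or less (limma on log2(RPKM + 1)), so 64.5% passed in either direction. Most changes were small: 900 genes were higher by 2-fold or more (6.25%) and 971 were lower by 2-fold or more (6.75%) on that scale. Without the choroid plexus and small RNA rows, 5955 of 13989 genes were higher (42.57%) and 3035 were lower (21.7%). Of these, 891 were higher and 719 lower by 2-fold or more, so the larger number of 2-fold falls rests on the rows left out. In 6391 of all 14391 genes (44.4%) every TTX library was above every untreated one, and in 3744 (26%) every TTX library was below. The median log2 change of all genes tested was 0.14, and it was 0.04 after quantile normalization, -0.02 after cyclic loess normalization and -0.07 after centring 5 classes of gene length. These scalings moved the balance of calls, to 5477 higher and 4710 lower with quantile normalization, 4745 and 5289 with cyclic loess, and 3805 and 5032 with length centring, so each change is to be read relative to these medians. A gene kept its call with the deposited values and all 3 scalings in 3243 cases of a rise and 2978 of a fall. Because so many genes passed, the gene groups below are given with their counts and medians, to be set beside those of all genes.

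**Figure D1:**
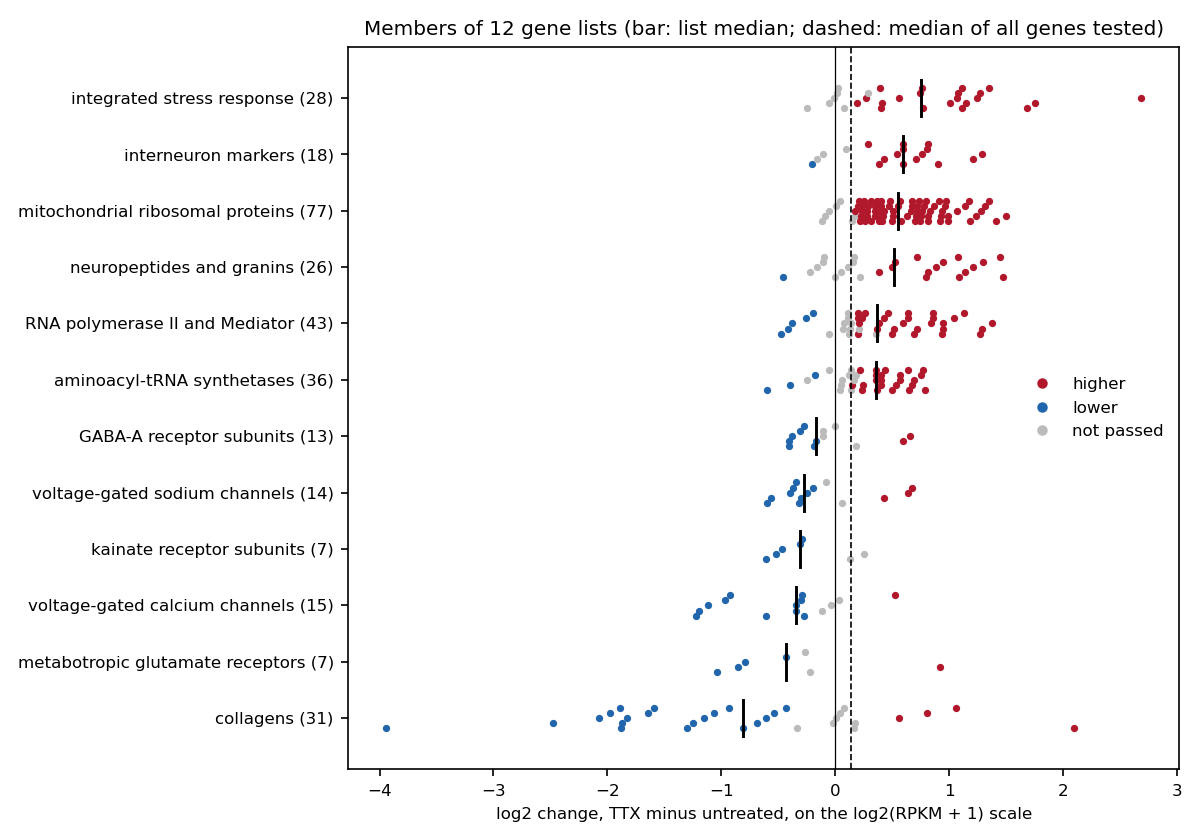
Each point is a gene of the list named at the left (number tested in brackets), placed by its log2 change on the log2(RPKM + 1) scale, red or blue where it passed and grey where it did not. List medians run from 0.75 for the integrated stress response to -0.81 for collagens, and the dashed line is the median of all genes tested, 0.14.

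Genes of the integrated stress response were higher with TTX. Of 28 members tested, 21 rose, none fell and 7 did not pass, with a median log2 change of 0.75, and 12 rose by 2-fold or more. After cyclic loess normalization 18 were higher and 3 lower, and 17 were higher under the deposited values and all 3 scalings. Nupr1, a small stress-induced chromatin protein, was at 22.5, 16.2 and 18.3 RPKM with TTX and 1.7, 3.04 and 1.67 RPKM untreated (log2 change 2.69, SE 0.19, adjusted p = 2.09e-06). Every TTX library lay far above the untreated ones, and the Bic/4AP libraries were low as well, at 0.706, 2.78 and 1.1 RPKM. Ddit3, which encodes the death-associated factor CHOP, was at 28.3, 26.6 and 29.1 RPKM with TTX and 13.2, 13.2 and 11.8 RPKM untreated (log2 change 1.08, SE 0.07, adjusted p = 1.53e-06). Ddit4, an inhibitor of the growth kinase mTORC1, was at 26.1, 25.9 and 27 RPKM with TTX and 14.3, 16.2 and 15.5 RPKM untreated (log2 change 0.74, SE 0.07, adjusted p = 8.09e-06). Trib3, a pseudokinase that feeds back on ATF4, was lower in level, at 3.39, 2.96 and 2.52 RPKM with TTX and 0.606, 1.37 and 0.595 RPKM untreated (log2 change 1.11, SE 0.19, adjusted p = 0.000457). The groups did not overlap in any of these 4 genes.

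Chac1, an enzyme that degrades glutathione, was at 26, 25.7 and 25.6 RPKM with TTX and 10.1, 14.3 and 7.1 RPKM untreated (log2 change 1.27, SE 0.18, adjusted p = 0.000123), and its groups were apart although the untreated libraries varied. Ppp1r15a, the phosphatase subunit that ends the response by removing the phosphate from eIF2alpha, was at 32.9, 32.6 and 34 RPKM with TTX and 15.6, 15.4 and 9.93 RPKM untreated (log2 change 1.25, SE 0.14, adjusted p = 2.37e-05). Atf3, a factor induced both by stress and by neuronal activity, was at 14.1, 12.5 and 12.1 RPKM with TTX and 2.96, 4.97 and 2.38 RPKM untreated (log2 change 1.69, SE 0.20, adjusted p = 4.39e-05). Its level with Bic/4AP was 32.9, 34.8 and 49.1 RPKM, so its highest levels were in the excited neurons. Bic/4AP and TTX share the untreated libraries as their reference, and the values are set side by side only. Atf4 itself, which is controlled mainly at translation, was at 56.5, 57.2 and 65.1 RPKM with TTX and 52.3, 46.6 and 49.1 RPKM untreated (log2 change 0.27, adjusted p = 0.0098), and its difference changed sign with length centring, to -0.14. Asns, the asparagine synthetase, did not pass, at 57.8, 58.7 and 64.5 RPKM with TTX and 67.5, 57.5 and 57.5 RPKM untreated (adjusted p = 0.925), and was called lower with length centring (log2 change -0.42, adjusted p = 0.0299).

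With the deposited values, enzymes that make serine and feed its carbon into folate were higher in 5 of 5 in the list. Phgdh, which starts serine synthesis, was at 20.5, 18.9 and 16.5 RPKM with TTX and 3.79, 6.43 and 4.47 RPKM untreated (log2 change 1.75, SE 0.16, adjusted p = 9.97e-06). Psph, which ends it, had a log2 change of 0.77 ± 0.07 (SE). The mitochondrial folate enzymes Mthfd2 and Shmt2 had log2 changes of 1.11 ± 0.14 (SE) and 0.76 ± 0.09 (SE). Psat1, the middle step, changed least, by 0.19 ± 0.06 (SE). Its call was lost with quantile and cyclic loess normalization and without TTX library 1 or 3 or untreated library 3. With length centring Psat1 was called lower (log2 change -0.22, adjusted p = 0.03). Aminoacyl-tRNA synthetases, which load amino acids onto tRNAs and of which several are ATF4 targets, were higher in 23 of 36 and lower in 3 (median 0.36), with 19 and 6 after cyclic loess, and the lower count was 1 without TTX library 3 or untreated library 3. Kars was at 40.9, 43 and 44.6 RPKM with TTX and 26.2, 29 and 23.2 RPKM untreated (log2 change 0.7, SE 0.08, adjusted p = 2.93e-05), with no overlap.

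The ER branch of the stress response did not move in the same way: of 20 genes of the unfolded protein response 7 were higher and 3 lower, with a median log2 change of 0.06, and none changed by 2-fold. The higher count was 4 without any 1 of the TTX libraries, the lower count was 7 without untreated library 2, and with cyclic loess the counts were 2 higher and 6 lower. Dnajb9, an ER chaperone, fell (34.9, 33.6 and 36.5 RPKM with TTX and 46.8, 44.4 and 46.9 RPKM untreated, adjusted p = 0.000201). Heat shock chaperones were higher in 6 of 22 and lower in 3 (7 without untreated library 2), and with length centring 2 were higher and 7 lower. The inducible Hspa1a was the member with the smallest p, at 12.6, 13.1 and 11.5 RPKM with TTX and 4.69, 4.44 and 3.49 RPKM untreated (log2 change 1.37, SE 0.14, adjusted p = 1.86e-05). Of 24 p53 targets 11 were higher and 3 lower (median 0.24), and 10 and 7 with cyclic loess and length centring. The 45.83% that were higher is near the 41.5% of all genes tested. Aen, a nuclease, was at 30.3, 28.4 and 30.1 RPKM with TTX and 10.3, 13 and 7.97 RPKM untreated (log2 change 1.44, SE 0.13, adjusted p = 8.72e-06). Sesn2, which is shared with the stress response list, was at 22.5, 23.3 and 23.5 RPKM with TTX and 9.76, 12.2 and 7.94 RPKM untreated (log2 change 1.15, SE 0.12, adjusted p = 2.31e-05). Hypoxia genes were higher in 9 of 19 (47.37%, beside 41.5% of all genes tested) and lower in 3, and after cyclic loess 8 were higher and 8 lower. Adm, the peptide adrenomedullin, was at 8.76, 8.8 and 7.93 RPKM with TTX and 1.16, 2.18 and 1.64 RPKM untreated (log2 change 1.85, SE 0.18, adjusted p = 1.10e-05).

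Promoters of the stress genes and of the neuropeptide genes are shown because each group has a well-known binding sequence. The stress element is read by ATF4 paired with a C/EBP factor, and was searched as TGATGNAA, and the cyclic AMP response element, bound by CREB, as TGACGTCA, both on either strand, in the 300 bases from 250 before to 50 after the gene start (RefSeq, GRCm38.p6). The stress element was found in 7 of the 23 stress response genes that have a promoter sequence (30.4%), and in 301 of 11047 genes tested (2.72%). It was found in 4 of the 11 of these that rose by 2-fold or more (36.4%), which are Atf3, Trib3, Chac1 and Nupr1, but also in Asns, Slc7a11 and Vldlr, which did not pass with the deposited values. The cyclic AMP element was found in 5 of 21 neuropeptide and granin genes (23.8%), and in 394 of 11047 genes tested (3.57%). Of these 5, Sst, Pcsk1 and Cartpt were called higher with TTX, and Scg2 and Chgb were not. Among all genes that rose, 2.66% held the stress element and 3.69% the cyclic AMP element. A match is a match of letters only, and neither motif overlaps the other in the stretches below. The stretches below, each 60 bases on the strand of the gene and upstream of its start, hold the stress element (capitals, here on the opposite strand) in Atf3 (chr1:191183410-191183469, minus strand), Chac1 (chr2:119351023-119351082, plus strand) and Nupr1 (chr7:126625547-126625606, minus strand), and the cyclic AMP element (capitals) in Sst (chr16:23890859-23890918, minus strand), Pcsk1 (chr13:75089753-75089812, plus strand) and Cartpt (chr13:99900762-99900821, minus strand).
Atf3: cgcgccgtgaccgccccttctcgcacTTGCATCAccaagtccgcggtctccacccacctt
Chac1: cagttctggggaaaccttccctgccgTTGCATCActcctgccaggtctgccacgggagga
Nupr1: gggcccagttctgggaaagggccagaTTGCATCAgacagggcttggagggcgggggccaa
Sst: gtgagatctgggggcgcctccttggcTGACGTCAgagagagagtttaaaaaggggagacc
Pcsk1: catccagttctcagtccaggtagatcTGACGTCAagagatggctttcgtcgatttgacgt
Cartpt: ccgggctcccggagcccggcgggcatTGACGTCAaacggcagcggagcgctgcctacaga

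The search fixed every letter of the stress element but the N, and the 3 elements shown have the same letter there. They lie 110, 193 and 110 bases before the starts of Atf3, Chac1 and Nupr1. The 3 cyclic AMP elements lie 48, 78 and 112 bases before the starts of Sst, Pcsk1 and Cartpt.

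Neuropeptide genes, whose products are packed in dense core vesicles and modulate transmission, held a larger share of rises with TTX (57.69%) than all genes tested (41.5%). Of 26 neuropeptides, granins and processing enzymes 15 rose, 1 fell and 10 did not pass (median log2 change 0.51), 7 of them by 2-fold or more. With cyclic loess 20 were higher and 4 lower, and with length centring 11 and 4, with a median of 0.11. Cck, a peptide of basket interneurons and some pyramidal cells, was at 46.1, 43.9 and 48.8 RPKM with TTX and 18.3, 21.2 and 18.8 RPKM untreated (log2 change 1.21, SE 0.07, adjusted p = 5.51e-07). Cort, a relative of somatostatin made by interneurons, was at 41.5, 41.8 and 49.6 RPKM with TTX and 14.6, 19.9 and 12.2 RPKM untreated (log2 change 1.47, SE 0.14, adjusted p = 1.07e-05). Penk, the enkephalin precursor, was at 24.2, 25.7 and 26.3 RPKM with TTX and 10.4, 14.3 and 9.87 RPKM untreated (log2 change 1.09, SE 0.12, adjusted p = 2.40e-05). In all 3 genes the lowest TTX value was well above the highest untreated one.

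Several of these peptides were high with excitation too. Penk was at 28.8, 29.3 and 35.4 RPKM with Bic/4AP, and Crh, the corticotropin-releasing peptide, was at 8.27, 10.7 and 10.2 RPKM with TTX and 4.17, 5.24 and 2.51 RPKM untreated (log2 change 1.14, SE 0.21, adjusted p = 0.000756). With Bic/4AP the values were 16.2, 15 and 19.2 RPKM. Pcsk1, the convertase that cuts peptide precursors, was at 27, 27.8 and 28 RPKM with TTX and 16.2, 20.4 and 13.3 RPKM untreated (log2 change 0.72, SE 0.12, adjusted p = 0.000379). The Bic/4AP libraries held 67.4, 69.4 and 81.3 RPKM. For these genes the untreated libraries were thus the lowest of the 9. Cartpt, the cocaine- and amphetamine-regulated peptide, was low, at 7.95, 6.84 and 5.79 RPKM with TTX and 2.43, 2.41 and 0.996 RPKM untreated (log2 change 1.45, SE 0.23, adjusted p = 0.000264). Sst, somatostatin, was at 91.9, 93.4 and 106 RPKM with TTX and 83, 72.8 and 67.8 RPKM untreated (log2 change 0.38, SE 0.10, adjusted p = 0.00759), a call that was lost without untreated library 3 (adjusted p = 0.0703) and a difference that changed sign with length centring (-0.01). Npy did not pass, at 46.1, 47.4 and 53.8 RPKM with TTX and 54.4, 53.2 and 50.8 RPKM untreated (adjusted p = 0.222), and was called lower with length centring (log2 change -0.49, adjusted p = 0.0046). Adcyap1, the peptide PACAP, was the member that fell, at 11.6, 13 and 13.1 RPKM with TTX and 16.7, 21.6 and 15.3 RPKM untreated (log2 change -0.46, SE 0.12, adjusted p = 0.00563), against 72.4, 69.6 and 71.5 RPKM with Bic/4AP.

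**Figure D2:**
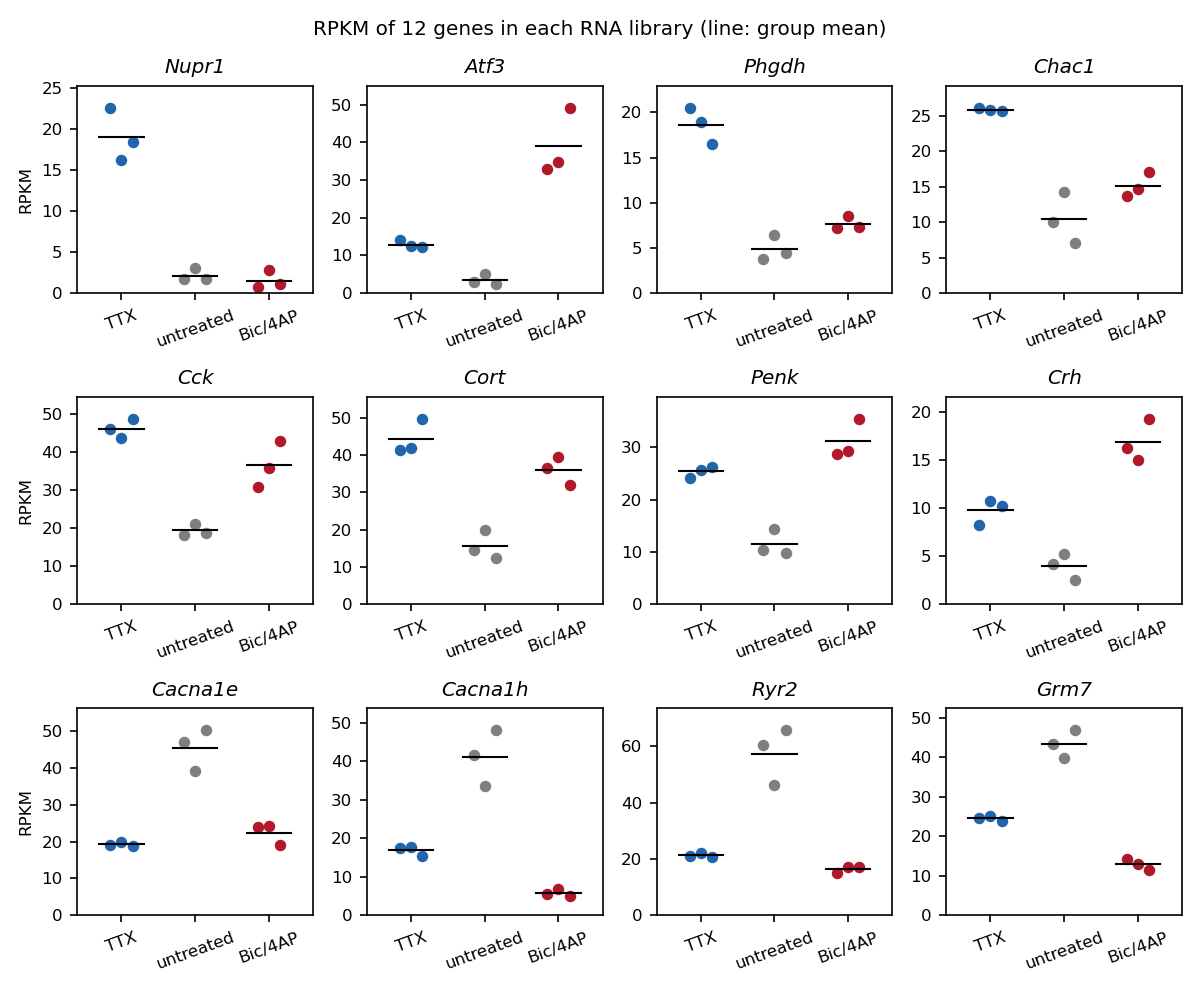
Each point is 1 library and the line is the group mean, with RPKM on the vertical axis from 0 and TTX, untreated and Bic/4AP libraries from left to right. In the top and middle rows (stress genes and peptides) TTX lies above untreated, in the bottom row (calcium channels Cacna1e and Cacna1h, ryanodine receptor Ryr2, glutamate receptor Grm7) it lies below, and the TTX and untreated libraries do not overlap in any of the 12 genes.

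Interneuron markers rose in 14 of 18 and fell in 1 (median 0.60), with 11 and 1 after cyclic loess and 9 and 2 after length centring. Several members, among them Cck, Vip, Sst, Npy, Slc32a1, Reln and Calb2, also stand in other lists. Slc32a1, the transporter that loads GABA into vesicles, was at 34.7, 36.7 and 38.3 RPKM with TTX and 15.1, 18.9 and 10.2 RPKM untreated (log2 change 1.29, SE 0.16, adjusted p = 5.67e-05). Lhx6, the factor of interneurons from the medial ganglionic eminence, was at 34.5, 35 and 36.9 RPKM with TTX and 22.4, 27.2 and 20.1 RPKM untreated (log2 change 0.6, SE 0.09, adjusted p = 0.000255). The 4 Dlx genes tested (Dlx1, Dlx2, Dlx5 and Dlx6), which specify interneurons, all rose, with log2 changes of 0.71 to 0.90, and Dlx6 lost its call with length centring (adjusted p = 0.129). The enzymes that make GABA were not called higher: Gad1 did not pass, at 60.3, 62.4 and 69.9 RPKM with TTX and 79.5, 65.7 and 71.1 RPKM untreated (adjusted p = 0.136), and was called lower with length centring (adjusted p = 0.0483) and without untreated library 2 (adjusted p = 0.0385). Gad2 was at 50.3, 53.2 and 57.9 RPKM with TTX and 67.3, 58.6 and 60.9 RPKM untreated (log2 change -0.21, adjusted p = 0.0375), a call lost with length centring, with no filter on low values, and without TTX library 1 or 2 or untreated library 1 or 3 (adjusted p of 0.0521 to 0.286). Markers of pyramidal and granule neurons were higher in 4 of 16 and lower in 2 (4 without untreated library 2, median 0.08), but with 4 higher and 6 lower after quantile normalization and cyclic loess and 3 and 5 after length centring.

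The pore subunits of voltage-gated sodium channels, the target of TTX, were lower. All 5 tested fell (Scn1a, Scn2a1, Scn3a, Scn8a and Scn9a), by log2 changes of -0.25 to -0.60, and all 5 were below 0 after cyclic loess as well. Scn8a, the channel of the axon initial segment, was at 25.4, 26.1 and 25.1 RPKM with TTX and 39.6, 34.9 and 43.1 RPKM untreated (log2 change -0.6, SE 0.07, adjusted p = 5.73e-05). Scn1a, the channel prominent in parvalbumin interneurons, was at 18.9, 19.8 and 18.8 RPKM with TTX and 25.1, 24.9 and 25.3 RPKM untreated (log2 change -0.37, SE 0.06, adjusted p = 0.000266). Scn2a1, the early axonal channel, was at 44.7, 46.6 and 49.3 RPKM with TTX and 59.3, 52.8 and 55.5 RPKM untreated (log2 change -0.25, SE 0.07, adjusted p = 0.00825), a call lost with length centring (adjusted p = 0.132) and without TTX library 1 (adjusted p = 0.0527). In these 3 genes the groups did not overlap.

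Beta subunits tune gating and anchor the pore. Scn2b rose, at 37.3, 36.7 and 38.7 RPKM with TTX and 23, 25.4 and 21.3 RPKM untreated (log2 change 0.67, SE 0.07, adjusted p = 1.70e-05), with no overlap, while Scn3b did not pass (adjusted p = 0.21) but was called lower under all 3 scalings (adjusted p of 0.0281 to 0.0481). Fgf12 and Fgf14, intracellular proteins that bind the channel tail, and Ank3, the ankyrin that holds it at the initial segment, fell by log2 changes of -0.30 to -0.40. Over the whole list of 14 sodium channel genes 3 rose and 9 fell (median -0.27).

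Voltage-gated calcium channels carry the calcium that triggers release and gene expression, and their pore subunits fell in 8 of 8 tested. Their log2 changes had a median of -0.95 and ran from -0.30 to -1.23. Cacna1e, the R-type channel, was at 19, 19.8 and 18.8 RPKM with TTX and 47.1, 39.3 and 50.3 RPKM untreated (log2 change -1.2, SE 0.08, adjusted p = 1.70e-06). Cacna1h, a T-type channel, was at 17.4, 17.6 and 15.3 RPKM with TTX and 41.6, 33.4 and 48 RPKM untreated (log2 change -1.23, SE 0.11, adjusted p = 8.42e-06). Cacna1a, the P/Q-type channel of nerve terminals, was at 23, 23.7 and 22.6 RPKM with TTX and 47.7, 38.6 and 53.5 RPKM untreated (log2 change -0.97, SE 0.10, adjusted p = 1.58e-05). Among the L-type channels that couple to CREB, Cacna1d changed by -1.11 ± 0.11 (SE) and Cacna1c by -0.61 ± 0.07 (SE) on the log2 scale. The smallest changes were in Cacna1b, the N-type channel, at -0.3 ± 0.07 (SE), and in Cacna1i, at -0.34 ± 0.13 (SE), whose call was lost with the replicate number as a block (adjusted p = 0.0578) and without TTX library 2 or 3 or untreated library 3. All 8 were below 0 in the pair of libraries of nearly equal depth (TTX 3 and untreated 2) and after cyclic loess.

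Accessory calcium channel subunits were mixed. Of 3 alpha2delta subunits 2 fell, and of 4 beta subunits Cacnb4 fell and Cacnb3 rose, the latter at 37.2, 37.1 and 37.8 RPKM with TTX and 24.8, 25.4 and 26.9 RPKM untreated (log2 change 0.52, SE 0.05, adjusted p = 1.96e-05). The whole list of 15 had 1 rise and 11 falls (median -0.34). Ryanodine receptors, which release calcium from the ER, fell in 3 of 3. Ryr2, the main form of the forebrain, was at 21, 22 and 20.7 RPKM with TTX and 60.3, 46.3 and 65.7 RPKM untreated (log2 change -1.38, SE 0.11, adjusted p = 3.24e-06). Ryr3 was at 11.2, 11 and 9.8 RPKM with TTX and 33.5, 27.9 and 38.1 RPKM untreated (log2 change -1.54, SE 0.10, adjusted p = 1.57e-06). Ryr1 was at 0.314, 0.269 and 0.229 RPKM with TTX and 13.3, 10.8 and 15.8 RPKM untreated (log2 change -3.48, SE 0.17, adjusted p = 2.19e-07), and close to 0 with Bic/4AP as well, at 0.158, 0.128 and 0.315 RPKM. Ryr2 was at 15.1, 17.1 and 17.1 RPKM with Bic/4AP, so here too the untreated libraries stood apart from both treatments.

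Potassium channels set the resting potential and repolarise the spike, and did not move as a class: of 40 voltage-gated ones 16 rose and 10 fell, and after cyclic loess 9 rose and 19 fell. Of 29 other potassium and pacemaker channels 16 rose and 7 fell (median 0.42), and after cyclic loess 13 and 11. Kcnn1, a calcium-activated channel, was at 12.6, 11.8 and 11.2 RPKM with TTX and 2.28, 4.07 and 2.67 RPKM untreated (log2 change 1.71, SE 0.18, adjusted p = 1.88e-05). Hcn2, a pacemaker channel, was at 35.8, 35.1 and 37 RPKM with TTX and 17, 20.2 and 14.9 RPKM untreated (log2 change 1.02, SE 0.09, adjusted p = 7.89e-06). Kcnj6, the GIRK channel opened by Gi-coupled receptors, fell, at 9.91, 9.95 and 8.69 RPKM with TTX and 15.6, 15.8 and 18.1 RPKM untreated (log2 change -0.73, SE 0.10, adjusted p = 0.00011).

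The genes of the ionotropic glutamate receptor pores were mostly lower with TTX. The 4 AMPA receptor subunits, which carry fast excitation, fell in 4 of 4, by log2 changes of -0.15 to -0.62. Gria2, the subunit that makes the receptor impermeable to calcium, was at 39.9, 40.6 and 42.7 RPKM with TTX and 67, 55.6 and 69.3 RPKM untreated (log2 change -0.62, SE 0.08, adjusted p = 0.000103). Gria1 was at 51.7, 52.3 and 56.4 RPKM with TTX and 80.1, 63.6 and 82 RPKM untreated (log2 change -0.48, SE 0.10, adjusted p = 0.00152), and Gria3 had a log2 change of -0.61 ± 0.06 (SE). Gria4 changed least, by -0.15 ± 0.06 (SE), and lost its call with the block (adjusted p = 0.0975), with length centring, with no filter on low values, with all 9 libraries in the fit and without any 1 of the libraries other than untreated library 3 (adjusted p of 0.0535 to 0.175). AMPA auxiliary proteins were split. Shisa7 fell, at 24.4, 23.9 and 23.6 RPKM with TTX and 35.9, 36.8 and 40.9 RPKM untreated (log2 change -0.64, SE 0.06, adjusted p = 1.29e-05), while Cacng4, a TARP that traffics the receptor, rose, at 28.1, 29.4 and 28.9 RPKM with TTX and 9.2, 17.4 and 7.61 RPKM untreated (log2 change 1.34, SE 0.22, adjusted p = 0.000311), with untreated library 2 above the other untreated ones.

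Kainate receptor genes fell in 5 of 7 with no rise (median -0.31), and 5 of 7 were lower with quantile normalization, cyclic loess and length centring as well, the last with 1 rise. Grik2, the GluK2 subunit of mossy fibre synapses, was at 23.3, 21.6 and 22.2 RPKM with TTX and 33.2, 33.8 and 37.2 RPKM untreated (log2 change -0.61, SE 0.06, adjusted p = 1.74e-05). Neto1, its auxiliary protein, was at 26.7, 27 and 26.5 RPKM with TTX and 37.3, 36.3 and 38.4 RPKM untreated (log2 change -0.47, SE 0.05, adjusted p = 3.05e-05). Of the NMDA receptor subunits, the coincidence detectors of plasticity, Grin1 fell, at 32.7, 34.6 and 35.6 RPKM with TTX and 49.1, 39.8 and 51.7 RPKM untreated (log2 change -0.43, SE 0.09, adjusted p = 0.0016). Grin2b was at 38.4, 40.6 and 41.1 RPKM with TTX and 47.3, 42.9 and 49.3 RPKM untreated (log2 change -0.21, adjusted p = 0.0177), a call lost with length centring, without TTX library 1 and without untreated library 1 or 3 (adjusted p of 0.0525 to 0.166). Grin2d, the embryonic and interneuron subunit, rose, at 9.46, 9.7 and 9.31 RPKM with TTX and 4.58, 5.31 and 4.17 RPKM untreated (log2 change 0.89, SE 0.14, adjusted p = 0.000248). The decline of the adult subunit Grin2a was larger (log2 change -1.03, SE 0.09, adjusted p = 5.90e-06), with Bic/4AP at 23.6, 25.9 and 26.1 RPKM beside 24.8, 26.3 and 25.1 RPKM with TTX.

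Metabotropic glutamate receptors fell in 4 of 7 and rose in 1 (median -0.43). Grm7, a presynaptic brake on release, was at 24.7, 25.1 and 23.9 RPKM with TTX and 43.3, 39.8 and 46.9 RPKM untreated (log2 change -0.79, SE 0.07, adjusted p = 5.16e-06). Grm5, which couples to calcium release, had a log2 change of -0.43 ± 0.07 (SE). Grm8 was low, at 1.44, 1.44 and 1.38 RPKM with TTX and 3.38, 4.17 and 4.41 RPKM untreated (log2 change -1.04, SE 0.15, adjusted p = 0.000194), and Grm4 was the member that rose, at 9.48, 10.7 and 8.56 RPKM with TTX and 3.81, 5.79 and 4.25 RPKM untreated (log2 change 0.92, SE 0.17, adjusted p = 0.00065). GABA-A receptor subunits fell in 7 of 13 and rose in 2 (median -0.17), all of the falls under 2-fold. Gabrd, of extrasynaptic receptors, rose by 0.59 ± 0.12 (SE) on the log2 scale, and by 0.19 with length centring, where its call was lost (adjusted p = 0.113) and the list had no rise and 9 falls. The chloride transporters both fell: Slc12a2 (NKCC1), which loads chloride into young neurons, was at 13.3, 13.7 and 13.1 RPKM with TTX and 31.6, 26.6 and 35.1 RPKM untreated (log2 change -1.15, SE 0.09, adjusted p = 3.79e-06), and Slc12a5 (KCC2), which extrudes it, changed by -0.33 ± 0.07 (SE). Receptors for serotonin, dopamine, noradrenaline and acetylcholine rose in 17 of 29 and fell in 3 (1 without TTX library 2 or 3, median 0.41). Htr3a was at 16, 15.4 and 14.9 RPKM with TTX and 4.6, 6.74 and 5.44 RPKM untreated (log2 change 1.33, SE 0.14, adjusted p = 1.67e-05). Chrm4 was at 18.8, 19.7 and 17.6 RPKM with TTX and 6.51, 9.22 and 6.45 RPKM untreated (log2 change 1.25, SE 0.13, adjusted p = 2.03e-05).

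Genes of the synapse structure did not share a direction. Presynaptic vesicle and release genes rose in 10 of 44 and fell in 14, after cyclic loess 17 rose and 16 fell, and with length centring 7 and 13. Doc2a, a calcium sensor of spontaneous release, was at 24.2, 23.1 and 22.6 RPKM with TTX and 6.41, 10.2 and 6.66 RPKM untreated (log2 change 1.5, SE 0.14, adjusted p = 1.16e-05). Syt7, a sensor of slow release, was at 29.8, 29.8 and 29.9 RPKM with TTX and 51, 42.7 and 53.1 RPKM untreated (log2 change -0.69, SE 0.08, adjusted p = 3.10e-05). Postsynaptic scaffolds rose in 10 of 30 and fell in 13, and after cyclic loess 4 rose and 16 fell. Among them were Neurl1a at 0.91 ± 0.07 (SE) and Kalrn, a spine GEF, at -0.69 ± 0.09 (SE) on the log2 scale. Synaptic adhesion genes rose in 16 of 45 and fell in 20, and after cyclic loess 12 rose and 29 fell. Cntnap5a, of the contactin-associated family, was at 5.23, 5.56 and 4.54 RPKM with TTX and 15.4, 15.1 and 20.4 RPKM untreated (log2 change -1.55, SE 0.14, adjusted p = 8.53e-06). Nrxn2, a neurexin, was at 37.3, 37.6 and 39.3 RPKM with TTX and 23.6, 25.5 and 24 RPKM untreated (log2 change 0.62, SE 0.06, adjusted p = 8.12e-06). Ephrins and their receptors rose in 10 of 20 and fell in 6: Efna3 was at 29.8, 28.2 and 27.5 RPKM with TTX and 11.4, 14.5 and 12.5 RPKM untreated (log2 change 1.1, SE 0.09, adjusted p = 3.44e-06). Epha10 was at 7.89, 7.07 and 6.37 RPKM with TTX and 15.3, 14.2 and 19.3 RPKM untreated (log2 change -1.08, SE 0.13, adjusted p = 5.29e-05).

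Of the 28 genes listed for homeostatic scaling, 9 rose and 10 fell, with a median log2 change of 0.07, below that of all genes, and 6 rose without TTX library 2. Nptx2, a pentraxin that clusters AMPA receptors, was at 10.7, 10.7 and 10.8 RPKM with TTX and 4.66, 5.74 and 4.03 RPKM untreated (log2 change 1.03, SE 0.14, adjusted p = 0.00013). Its level with Bic/4AP was 48.6, 48.6 and 53 RPKM. Camkk1, a kinase upstream of CaMKIV, was at 25.7, 24.3 and 23.7 RPKM with TTX and 45.5, 37.1 and 50.4 RPKM untreated (log2 change -0.82, SE 0.10, adjusted p = 3.77e-05). Homer1 changed by -0.3 ± 0.05 (SE), and Bdnf by 0.24 ± 0.06 (SE), a call that quantile and cyclic loess normalization ended (adjusted p of 0.465 and 0.632). Nptx1 (adjusted p = 0.0996) did not pass, nor did Npas4 (adjusted p = 0.189), which was at 6.35, 6.46 and 8.07 RPKM with TTX and 6.82, 9.7 and 8.98 RPKM untreated and at 117, 121 and 134 RPKM with Bic/4AP. The low untreated level of Npas4, a factor induced by calcium entry, overlapped its level with TTX, but it was called lower with quantile normalization, cyclic loess and length centring (log2 changes of -0.40, -0.55 and -0.51, adjusted p of 0.0321, 0.0101 and 0.00897). Clock genes fell in 8 of 20 and rose in 3 (6 without untreated library 2, median -0.13): Per3 was at 3.37, 3.22 and 2.67 RPKM with TTX and 18.9, 17 and 24.4 RPKM untreated (log2 change -2.36, SE 0.15, adjusted p = 1.34e-06), Per2 at 9.01, 8.51 and 7.77 RPKM with TTX and 17.1, 15.5 and 19.997 RPKM untreated (log2 change -0.97, SE 0.11, adjusted p = 3.69e-05), and Nfil3, a repressor of the clock output genes, rose, at 32.7, 34 and 37.1 RPKM with TTX and 19, 21.2 and 16.2 RPKM untreated (log2 change 0.85, SE 0.09, adjusted p = 2.09e-05).

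Transcription factors and chromatin genes were divided. Histone acetyltransferases, deacetylases and their readers rose in 9 of 26 and fell in 7 (4 without TTX library 3), and after cyclic loess 7 rose and 15 fell. Hdac7, a deacetylase that leaves the nucleus when calcium rises, was at 3.29, 2.66 and 2.6 RPKM with TTX and 12.1, 11.8 and 16.1 RPKM untreated (log2 change -1.89, SE 0.16, adjusted p = 5.85e-06), with no overlap. Zinc finger genes of the Zfp class rose in 121 of 327 and fell in 43 (28 without TTX library 3), and after cyclic loess 80 rose and 121 fell, so their balance depends on the scaling. Zfp831 was at 0.403, 0.473 and 0.316 RPKM with TTX and 7.53, 6.78 and 10.1 RPKM untreated (log2 change -2.7, SE 0.18, adjusted p = 1.29e-06). With Bic/4AP the values were 0.316, 0.511 and 0.282 RPKM. Replication-dependent histones rose in 25 of 60 (41.67%, near the 41.5% of all genes tested) and fell in 2. They rose in 12 without TTX library 1, and length centring gave 10 rises and 14 falls. Clustered protocadherins, which give each neuron a surface identity, rose in 12 of 57 and fell in 6, and after cyclic loess 9 rose and 27 fell, with the rises at 7 without TTX library 2 and at 18 without untreated library 2.

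Growth factors and their receptors rose in 18 of 36 and fell in 10 (median 0.24), and 13 of the rises and 8 of the falls held under all 3 scalings. Nrg2, a neuregulin that signals through ErbB receptors, was at 2.35, 2.65 and 2.01 RPKM with TTX and 13.2, 11 and 16.2 RPKM untreated (log2 change -2.1, SE 0.17, adjusted p = 4.07e-06), and Ntrk3, the receptor of neurotrophin 3, changed by -0.64 ± 0.08 (SE) on the log2 scale. Interferon and inflammatory genes rose in 13 of 23 and fell in 4 (median 0.42). Their members moved apart: Psmb9, an immunoproteasome subunit, was at 6.48, 4.6 and 3.97 RPKM with TTX and 0.661, 1.49 and 1.08 RPKM untreated (log2 change 1.53, SE 0.21, adjusted p = 0.000102). Bst2, the antiviral tetherin, was at 4.23, 3.63 and 2.16 RPKM with TTX and 9.04, 9.55 and 11.8 RPKM untreated (log2 change -1.38, SE 0.20, adjusted p = 0.000164). Of 33 rapid activity genes 25 rose and 3 fell (median 0.53). After cyclic loess 18 were higher and 4 lower, with length centring 17 and 5, and 15 were higher under the deposited values and all 3 scalings. The call of Fos as higher was lost with cyclic loess (adjusted p = 0.0544) and length centring (adjusted p = 0.174). Cyr61, a matrix protein driven by SRF, was at 26.4, 25.9 and 25.1 RPKM with TTX and 6.91, 9.94 and 5.24 RPKM untreated (log2 change 1.72, SE 0.17, adjusted p = 1.16e-05). The Bic/4AP libraries held 23.5, 28.9 and 43.5 RPKM. Egr4, a zinc finger factor, was at 13.1, 11.8 and 11.8 RPKM with TTX and 3.3, 5.01 and 3.48 RPKM untreated (log2 change 1.44, SE 0.16, adjusted p = 2.66e-05). Its level with Bic/4AP was 40.7, 42 and 48.7 RPKM. In Egr4 the TTX values lay between the untreated and the Bic/4AP values.

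With TTX, 41.5% of all genes tested rose and 23% fell, and several groups of genes of protein and RNA production held a larger share of rises. Mitochondrial ribosomal proteins, which translate the proteins encoded by mitochondrial DNA, rose in 70 of 77 with no fall (median 0.55), 10 of them by 2-fold or more. Mrpl46 was at 28.7, 29.7 and 28.8 RPKM with TTX and 11.2, 11.5 and 10.7 RPKM untreated (log2 change 1.31, SE 0.07, adjusted p = 2.48e-07), Mrpl34 at 40.2, 38.6 and 39 RPKM with TTX and 15.4, 16.6 and 14.8 RPKM untreated (log2 change 1.28, SE 0.06, adjusted p = 1.77e-07). Mrpl54 was at 33.3, 33.5 and 34.1 RPKM with TTX and 13.3, 14.2 and 13.7 RPKM untreated (log2 change 1.24, SE 0.06, adjusted p = 1.86e-07). Each of these had all TTX libraries far above all untreated ones, and 39 of the 77 stayed higher under the deposited values and all 3 scalings, while with length centring 8 were lower. Subunits of RNA polymerase II and Mediator, which together start transcription of messenger RNAs, rose in 28 of 43 and fell in 5 (median 0.37). Polr2f was at 37, 36.2 and 38.2 RPKM with TTX and 11.6, 15.2 and 14.4 RPKM untreated (log2 change 1.38, SE 0.09, adjusted p = 1.25e-06), while Med13, a large subunit of the Mediator kinase module, fell, at 22.2, 23.7 and 23.6 RPKM with TTX and 30.3, 30.7 and 30.1 RPKM untreated (log2 change -0.38, SE 0.06, adjusted p = 0.000176).

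Cytosolic ribosomal proteins rose in 48 of 79 and fell in 3 (5 without untreated library 2), nuclear genes of oxidative phosphorylation rose in 32 of 78 and fell in 4 (9 without untreated library 2, and 1 without TTX library 1 or 2 or untreated library 1 or 3), and proteasome subunits rose in 21 of 37 with no fall. The 41.03% of oxidative phosphorylation genes that rose is near the 41.5% of all genes, as is the 41.8% of the 55 translation factors. With length centring the ribosomal, oxidative phosphorylation and proteasome genes turned, to 7 higher and 18 lower, 6 and 24, and 6 and 11, so their direction depends on that scaling. Rpl36 was at 39.6, 36.9 and 38.3 RPKM with TTX and 17.4, 19 and 20.1 RPKM untreated (log2 change 0.99, SE 0.07, adjusted p = 1.38e-06), Ndufa1, of complex I, at 44.1, 41.1 and 43.6 RPKM with TTX and 25.6, 24.2 and 23 RPKM untreated (log2 change 0.8, SE 0.06, adjusted p = 2.80e-06). Psmb10, an immunoproteasome subunit, was at 25.8, 22.7 and 24.4 RPKM with TTX and 7.41, 7.74 and 8.09 RPKM untreated (log2 change 1.53, SE 0.09, adjusted p = 5.35e-07). Of splicing proteins, small nuclear RNP and SR proteins rose in 24 of 43 and fell in 11, and with length centring 10 were higher and 15 lower. Among them were Sf3b5 at 1.18 ± 0.09 (SE) and the SR protein Srsf1 at -0.55 ± 0.07 (SE) on the log2 scale. The hnRNP genes rose in 2 of 20 and fell in 9 (6 without any 1 of the TTX libraries or untreated library 1, median -0.17). Cholesterol synthesis genes rose in 12 of 23 and fell in 3 (5 without TTX library 3 or untreated library 2), with Mvk, mevalonate kinase, at 46.3, 45.5 and 45.9 RPKM with TTX and 19, 21.4 and 13.7 RPKM untreated (log2 change 1.32, SE 0.12, adjusted p = 9.93e-06) and Idi1, an isomerase, at -0.34 ± 0.08 (SE).

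These groups differ in transcript length, and the change with TTX followed length. The median log2 change was 0.31 in the shortest of 5 classes of exon length (median 1037 bases) and 0.26, 0.18, 0.08 and -0.06 in the following classes, the last with a median of 6548 bases. Of the shortest class 51.1% rose and 20.2% fell, and of the longest 23.7% rose and 35.8% fell. The same order was seen in the pair of libraries of nearly equal depth, from 0.23 to -0.13, and after cyclic loess, from 0.17 to -0.23. These classes hold all 14391 genes tested, with the choroid plexus and small RNA rows. The 364 small RNA rows had a median length of 79 bases, and 15 of them rose and 244 fell. Their part in the values of the shortest class was not tested. Mitochondrial ribosomal proteins had a median length of 1067 bases, calcium channels of 8223 bases and stress response genes of 2013 bases. With length centring the stress response genes had 18 higher and 2 lower and calcium channels 1 higher and 12 lower, so these 2 groups kept their direction. The part of length in any single gene's change was not tested.

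**Figure D3:**
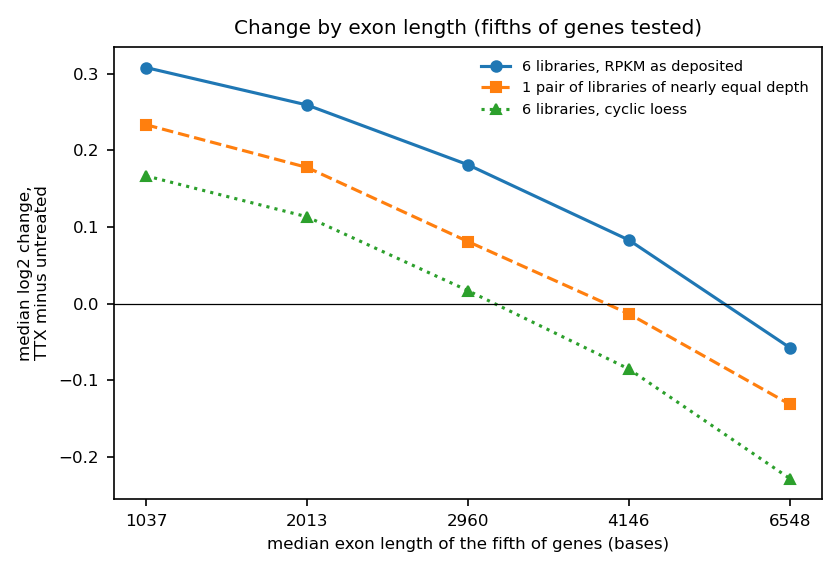
All genes tested, with the choroid plexus and small RNA rows, are divided into 5 classes by exon length. The horizontal axis marks the median length in bases, and the vertical axis is the median log2 change, TTX minus untreated. The 3 lines are the deposited values, the pair of libraries of nearly equal depth and cyclic loess, and each goes down from the shortest to the longest class.

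The largest falls outside the choroid plexus list and the small RNAs were in genes that were high in all 3 untreated libraries and close to 0 with TTX. Igf2, an insulin-like growth factor that is imprinted, was at 0.578, 0.354 and 0.547 RPKM with TTX and 48.8, 35.2 and 53.9 RPKM untreated (log2 change -4.96, SE 0.17, adjusted p = 4.36e-08). Tnfrsf25, a death domain receptor, was at 0.582, 0.709 and 0.434 RPKM with TTX and 39.5, 32 and 47.8 RPKM untreated (log2 change -4.68, SE 0.17, adjusted p = 4.48e-08). Robo3, a receptor that lets commissural axons cross the midline, was at 0.318, 0.268 and 0.131 RPKM with TTX and 21.3, 18.2 and 26.3 RPKM untreated (log2 change -4.2, SE 0.17, adjusted p = 7.56e-08). Firre, a nuclear long noncoding RNA of the X chromosome, was at 1.19, 0.887 and 1.01 RPKM with TTX and 34.9, 28 and 40.2 RPKM untreated (log2 change -4.11, SE 0.16, adjusted p = 5.54e-08). These genes were also near 0 with Bic/4AP, at 1.53, 1.59 and 1.18 RPKM for Igf2 and 0.187, 0.0461 and 0.195 RPKM for Robo3, and the choroid plexus markers were high in the same untreated libraries. Wdr86 and Defb11 were listed at 0 in every TTX and every Bic/4AP library, and at 14.9, 12 and 17.6 and 13.6, 12.4 and 14.4 RPKM untreated. Aifm3, Slc26a10, Col9a3 and the noncoding AB041803 complete the 10 largest, with log2 changes of -4.09, -3.98, -3.94 and -4.35. Whether these transcripts came from the same cells as the choroid plexus markers was not tested.

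The rises were smaller, and the 10 largest had log2 changes of 2.01 to 2.91. Besides Nupr1 they held Lrrc32, which presents latent TGF-beta, at 9.72, 9.68 and 7.58 RPKM with TTX and 1.21, 2.34 and 0.913 RPKM untreated (log2 change 2.04, SE 0.22, adjusted p = 2.11e-05). Snrnp25, of the minor spliceosome, was at 25.8, 22.2 and 23 RPKM with TTX and 4.48, 6.63 and 4.4 RPKM untreated (log2 change 2.01, SE 0.14, adjusted p = 1.88e-06). Psmg3, a proteasome assembly factor, was at 32.3, 28.8 and 31.5 RPKM with TTX and 7.19, 9.44 and 4.57 RPKM untreated (log2 change 2.03, SE 0.18, adjusted p = 7.64e-06). Prph, the intermediate filament peripherin, was at 8.78, 7.69 and 6.21 RPKM with TTX and 1.05, 2.31 and 0.374 RPKM untreated (log2 change 2.01, SE 0.28, adjusted p = 0.000121), with untreated library 2 between the other untreated ones and TTX. Col1a1, a fibrillar collagen of fibroblasts, was at 11.7, 12.6 and 10.5 RPKM with TTX and 1.81, 2.71 and 1.45 RPKM untreated (log2 change 2.1, SE 0.18, adjusted p = 6.14e-06), and the remaining 4 were Crct1, S100a4, Tcap and Rps4l. Col1a1 stood against most of its family: of 31 collagens 4 rose and 20 fell (median -0.81), 14 of them by 2-fold or more. Col6a1, a microfibril collagen, was at 3.1, 2.89 and 1.98 RPKM with TTX and 18.4, 16.6 and 23.1 RPKM untreated (log2 change -2.48, SE 0.17, adjusted p = 1.68e-06). With Bic/4AP the values were 2.001, 2.03 and 1.28 RPKM. Itga7 and Itga8, integrins that bind laminin and RGD ligands, fell by log2 changes of -2.84 and -2.25.

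Markers of cells other than neurons were measured in the same libraries. Astrocyte markers rose in 7 of 12 and fell in 1, with summed levels of 304 to 318 RPKM with TTX and 252 to 260.4 RPKM untreated, and 4 rose without TTX library 1 or 2. Gfap, the astrocyte filament, was at 31.4, 27.6 and 24.6 RPKM with TTX and 8.41, 12.8 and 9.54 RPKM untreated (log2 change 1.37, SE 0.14, adjusted p = 1.35e-05). Oligodendrocyte lineage markers summed to 58 to 70.2 RPKM with TTX and 28.9 to 36.6 RPKM untreated, with 5 of 8 higher and 3 lower: Olig1 was at 24.8, 24.9 and 21 RPKM with TTX and 4.66, 9.42 and 6.9 RPKM untreated (log2 change 1.66, SE 0.18, adjusted p = 2.73e-05). Pdgfra, the receptor of precursors, was at 0.222, 0.46 and 0.305 RPKM with TTX and 2.15, 2.11 and 2.16 RPKM untreated (log2 change -1.24, SE 0.14, adjusted p = 2.62e-05). The lineage markers Sox10, Mog, Gpr17 and Bcas1 were under the threshold for testing, and in each every TTX library lay below every untreated one. Sox10 was at 0.0292, 0 and 0 RPKM with TTX and 0.589, 0.517 and 0.835 RPKM untreated. Vascular, mural and fibroblast markers rose in 7 of 11 and fell in 1 (66 to 79.2 RPKM in sum against 40.5 to 52.3 RPKM). The endothelial markers Pecam1, Cldn5 and Cdh5 were under the threshold for testing. Cldn5 was at 0, 0.119 and 0.073 RPKM with TTX and 0.376, 0.496 and 0.369 RPKM untreated. Cdh5 was at 0.139, 0 and 0.0259 RPKM with TTX and 0.490, 0.579 and 0.787 RPKM untreated. In both, every TTX library lay below every untreated one, while the groups overlapped in Pecam1. Microglia and macrophage markers rose in 3 of 8, and in 1 without TTX library 1 or untreated library 1 (23.5 to 28.4 RPKM against 17.4 to 21.5 RPKM). Progenitor and cycling genes rose in 7 of 9, and with length centring in 4 with 2 falls (188 to 189.6 RPKM against 126 to 143 RPKM), with Nes, the filament nestin, at 18, 17 and 14 RPKM with TTX and 3.77, 5.73 and 3.47 RPKM untreated (log2 change 1.72, SE 0.17, adjusted p = 1.47e-05). These levels moved with the same groups as the stress, matrix and growth genes above, and their part in those results was not tested.

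Promoter methylation and H3K27ac, a mark of active promoters and enhancers, were set beside the RNA calls. The methylation came from 1 bisulfite library per treatment of C57BL/6 neurons and the peaks from untreated ICR neurons. The methylation values come with no coverage and no replicate, so their depth is unknown. The mean CpG methylation was taken within 500 bases of the gene start, or of all starts where a gene has several. It was 50% or more in untreated neurons for 553 of 10879 genes (5.08%), without the choroid plexus and small RNA rows. Among genes lower with TTX by 2-fold or more it was 120 of 532 (22.6%), among all that were lower 9.12%, among all that were higher 3.82% and among those higher by 2-fold or more 7.32%. The median difference in methylation, TTX minus untreated, was 0.015 percentage points over all genes and -0.025 over those lower by 2-fold or more. An H3K27ac peak of the second untreated list overlapped the same window, by 1 base or more, in 43.7% of all genes, in 15.9% of those lower by 2-fold or more and in 32.5% of those higher by 2-fold or more, and in the first, shorter list the shares were 14.0%, 5.06% and 9.27%. The sets also differ in level: the median RPKM over the 6 libraries was 16.5 for the 11016 genes with a promoter, 4.05 for the 553 lower by 2-fold or more and 9.51 for the 701 higher by 2-fold or more, and the part of level in the shares was not tested. Igf2 had 8.15% methylation over 139 CpGs in untreated and 6.72% over 138 CpGs in TTX neurons, Nupr1 61.1% and 56.9% over 16 CpGs, and Atf3 0.467% and 0.666%.

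**Figure D4:**
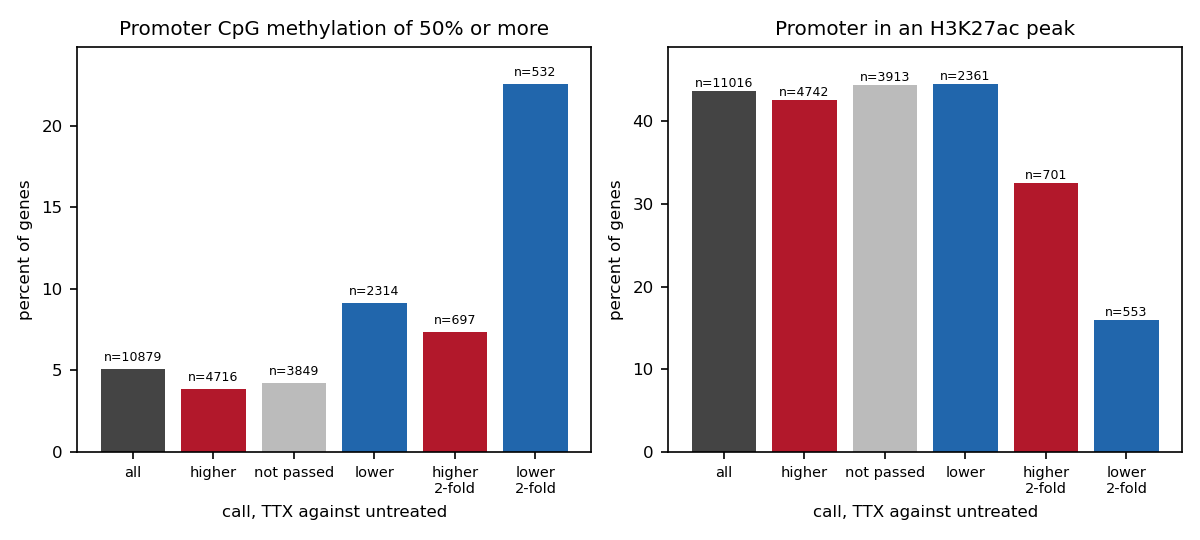
Bars give the percent of genes in each RNA call set whose promoter had a mean CpG methylation of 50% or more in untreated neurons (left) or lay in an H3K27ac peak of the second untreated list (right), with the number of genes above each bar. Genes lower by 2-fold or more had the highest share on the left (22.6%) and the lowest on the right (15.9%).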

How the data were processed

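RNA was poly(A)-selected and made into libraries with a directional kit, per the labels' protocols, and the submitters' processing notes name TopHat, Bowtie2 2.2.4, SAMtools 0.1.19 and the build mm10. The deposited RNA tables hold 1 column per library with no header, and the authors' values are taken as RPKM. A step of whole reads was found for 19588 of 19588 genes above 0 in 3 or more libraries. The search allowed 0.03 read plus a part that grew with the reads. With that part a step is found for any gene, so this count cannot check the unit. These steps gave the exon length used and the number of reads per library, which are estimates. Their scale was set on 90 genes without introns, of which 64 lay within 10% of it. The counting program, its use of strand and the treatment of duplicate reads are not given in the sources used here. Reads of overlapping or antisense genes and of near-identical copies therefore cannot be told apart. In the deeper TTX libraries the top of the range was lower: the 100th gene by level stood at 70.0 to 77.9 RPKM, against 73.1 to 90.1 RPKM untreated. Of 24062 rows, 4 with a repeated name were left out.

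Genes that reached 1 RPKM in 3 or more of the 6 libraries were tested as log2(RPKM + 1) with limma 3.58.1 (R 4.3.3, trend, no block, Benjamini-Hochberg over 14391 genes), a procedure that was tested on simulated data. A change by 2-fold or more means a log2 change of 1 or more on this scale, which understates the change of low genes. Members and gene lists were chosen with earlier results of these data known. Named genes are the 10 largest changes in each direction among passed genes with a group mean of 5 RPKM or more and no overlap between groups (choroid plexus, small RNA, predicted and date-named rows left out), the 3 smallest p in each direction of each list, and a fixed set, and 37 further genes, such as Atf3, Chac1, Phgdh, Crh and the remaining calcium channels, were added after their values were seen.

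The authors' methylation values are a fraction per CpG with no coverage, averaged here over promoters with 5 or more CpGs within 500 bases of the RefSeq start (GRCm38.p6). The deposited peak lists (MACS 1.4.1, per the submitters' processing notes) carry a score per peak, of which only the position was used. Alternatives were quantile, cyclic loess and length-class scaling, other filters and pseudocounts, all 9 RNA libraries, the replicate number as a block, leaving out each library, and, chosen after seeing the data, the pair of libraries of nearly equal depth.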

Additional observations from a re-analysis of the deposited data

How the results depend on the processing

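Some counts moved with the scaling. Centring 5 length classes gave 3805 genes higher and 5032 lower, and 339 higher by 2-fold or more. Cyclic loess gave 5289 lower and 522 higher by 2-fold or more. With only genes of a mean of 5 RPKM or more, 440 were lower by 2-fold or more. Leaving out 1 library in turn gave 5061 to 6773 higher, 2784 to 3588 lower, 741 to 1247 higher by 2-fold or more and 891 to 1048 lower by 2-fold or more. The cause was not tested. The replicate number as a block gave 5814 higher and 3167 lower, and 906 and 981 by 2-fold or more. Same-numbered libraries deviated with correlations of -0.177, 0.0655 and -0.0532, and other-numbered ones with correlations of -0.126 to 0.221. With so few libraries these values cannot show whether the numbers pair the samples.

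Of 416 named genes, 11 changed sign with length centring, to log2 changes of -0.0856 in Cdk5, -0.0061 in Cnih2, -0.0613 in 6030419C18Rik, -0.12 in Herpud1, -0.00032 in Map1lc3a, -0.0089 in Nr1d1, -0.15 in Hnrnph2, -0.16 in Jmjd6, -0.0087 in Sst, -0.22 in Psat1 and -0.14 in Atf4. Nr1d1 also did so with cyclic loess (-0.0022), and Atp5c1 in the pair of libraries of nearly equal depth (0.014). With length centring Psat1 (adjusted p = 0.03) and Jmjd6 (adjusted p = 0.0489) were called lower. Calls of named genes were lost in 43 cases with length centring, 16 with cyclic loess, 12 with quantile normalization and 11 with the block, and in 3 to 20 without 1 library. Calls were gained in 5, 4 and 3 cases with length centring, cyclic loess and quantile normalization. The methylation files give no coverage, and the low reads of genes near 1 RPKM limit what those genes can show.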
